A study of Mus musculus with 30 samples.

Results

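Complement is a cascade of plasma and tissue proteins that marks microbes and damaged cells for removal. In the classical route the proteases C1r and C1s, bound to C1q, cleave C4 and C2, and the products cleave C3, on which all routes meet. The alternative route amplifies C3 cleavage through factor B, and cleavage of C5 starts the terminal pore. Host cells hold the cascade back with membrane proteins such as CD55 and with secreted inhibitors such as the C1 inhibitor. Most plasma complement is made in the liver, and lung epithelium and fibroblasts are known to make several components locally.

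The complement genes described here are the 9 whose symbols were listed for this purpose: the classical proteases C1ra and C1s1, their substrates C4b and C2, the central component C3, the alternative factor Cfb, the terminal component Hc (the mouse gene of C5), and the regulators Cd55 and Serping1 (the C1 inhibitor). They were found by symbol, each once, among the 55487 genes counted in every library. All 9 passed the filter on low counts in both cell fractions, Cfb in the fibroblast fraction only through its EC libraries.

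The libraries are bulk RNA-seq of mouse lung organoid cultures exposed for 72 hours to vehicle, EC, IPFc or TGFb. Lung Epcam+ cells of wild type (WT) adult C57BL/6J mice, 300000 per culture, were grown 1:1 with CCL206, an established fibroblast line of mouse lung that had been treated so as not to divide. After exposure the cells were sorted back with Epcam beads into an epithelial (Epcam+) and a fibroblast fraction. EC, the exacerbation cocktail, held TNFα, IL-1β, IL-6 and IL-8 by the labels, with KC as the mouse form of IL-8 in the study's methods. IPFc, the cocktail for idiopathic pulmonary fibrosis, held TGF-β together with the type 2 cytokines IL-4 and IL-13, the alarmins TSLP and IL-33, the inflammatory cytokines TNFα and IL-1β, and the chemokines CCL2 and IL-8. TGFb was TGF-β alone at 2 ng/ml. Vehicle, EC and IPFc have 4 epithelial libraries each and TGFb has 3, from mice 2, 3 and 4, while the fibroblast fraction has 3 vehicle libraries, from mice 1, 3 and 4, and 4 of each treatment. The series holds no library of vehicle fibroblasts of mouse 2 or of TGFb epithelium of mouse 1. The paper states that a control fibroblast sample was left out because its RNA was of low quality. Since CCL206 is a single line, the fibroblast libraries are separate cultures of the same cells grown with epithelium of different mice.

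The libraries held 5113828 to 20317181 counted reads, and the smallest was EC fibroblast mouse 1. Neither fraction was pure. The RNA of the other fraction was estimated as the median level of its marker genes in a library, in percent of their level in the partner library of the same culture. Epithelial marker RNA in fibroblast libraries stood at 22.4% ± 7.46 (SD, n = 3) with vehicle, 44.5% ± 9.33 (n = 4) with EC, 19.4% ± 9.10 (n = 4) with IPFc and 2.19% ± 1.26 (n = 4) with TGFb. Fibroblast marker RNA in epithelial libraries stood at 5.99% ± 2.51 (n = 4) with vehicle, 11.6% ± 4.77 (n = 4) with EC, 11.2% ± 4.99 (n = 4) with IPFc and 30.7% ± 3.88 (n = 3) with TGFb. These shares moved with treatment. With TGFb the fibroblast markers differed among themselves. Sparc averaged 564 CPM in epithelial and 767 CPM in fibroblast libraries, and Mmp2 174 and 952 CPM. Fibroblast RNA carried over and marker RNA made by epithelial cells cannot be told apart here, so subtraction of the share may remove too much. Over the 20 immune markers the summed level, in CPM (reads of the gene per 1e6 counted reads), also moved with treatment. Its median was 144 with vehicle, 316 with EC, 134 with IPFc and 37.4 with TGFb in fibroblast libraries, and 326, 539, 300.2 and 182 in epithelial libraries, and its part in the results was not tested. In vehicle and EC libraries of both fractions Cd14 and Lyz2 were its largest members. In epithelial libraries Cd14 averaged 253 CPM with vehicle and 434 with EC, and Lyz2 61.4 and 80.5. Ptprc averaged at most 0.418 CPM in any group, so the sum is not a measure of immune cells. Endothelial markers summed to 6.73 to 35.2 CPM over 15 genes. In bulk RNA, fewer cells of a type and less RNA per cell cannot be told apart.

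**Figure D1:**
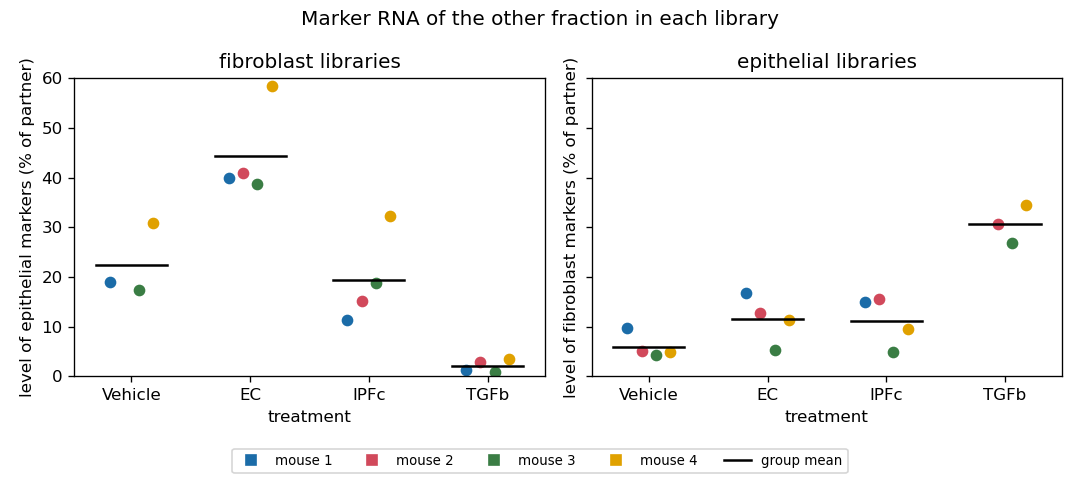
RNA of the other cell fraction in each library, as the median level of its markers in percent of the partner library. Points are libraries coloured by mouse and lines are group means. Epithelial marker RNA in fibroblast libraries was lowest with TGFb (mean 2.19%) and highest with EC (44.5%), and fibroblast marker RNA in epithelial libraries was highest with TGFb (30.7%).

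The promoters of C3, of the protease pair C1ra and C1s1, and of Hc are shown because the contrasts described below turn on these genes. RefSeq windows (GRCm38.p6, 250 bases before to 50 after the start) were held for 5 of the 9 members, and capitals mark matches to STAT (TTCNNNGAA) or C/EBP (TTGCNNAA) motifs on either strand.
C3, chr17:57228087-57228386, minus strand: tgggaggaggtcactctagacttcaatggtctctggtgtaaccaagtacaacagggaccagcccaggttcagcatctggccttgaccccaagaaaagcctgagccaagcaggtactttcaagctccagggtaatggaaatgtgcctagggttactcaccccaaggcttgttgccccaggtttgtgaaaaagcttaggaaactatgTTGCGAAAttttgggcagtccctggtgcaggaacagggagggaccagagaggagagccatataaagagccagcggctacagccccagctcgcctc
C1ra, chr6:124512371-124512670, plus strand: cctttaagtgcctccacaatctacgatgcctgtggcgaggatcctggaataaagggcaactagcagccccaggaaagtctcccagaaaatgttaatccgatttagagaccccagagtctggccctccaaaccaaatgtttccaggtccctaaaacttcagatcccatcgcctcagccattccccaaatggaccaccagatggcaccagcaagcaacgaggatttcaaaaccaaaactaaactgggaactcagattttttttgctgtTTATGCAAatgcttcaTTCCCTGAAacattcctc
C1s1, chr6:124542310-124542609, minus strand: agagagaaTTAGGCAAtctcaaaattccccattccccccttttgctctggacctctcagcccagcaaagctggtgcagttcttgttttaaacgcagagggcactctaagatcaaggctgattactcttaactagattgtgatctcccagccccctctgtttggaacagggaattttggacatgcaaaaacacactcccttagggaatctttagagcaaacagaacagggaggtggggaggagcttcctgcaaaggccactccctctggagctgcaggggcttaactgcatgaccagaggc
Hc, chr2:35061363-35061662, minus strand: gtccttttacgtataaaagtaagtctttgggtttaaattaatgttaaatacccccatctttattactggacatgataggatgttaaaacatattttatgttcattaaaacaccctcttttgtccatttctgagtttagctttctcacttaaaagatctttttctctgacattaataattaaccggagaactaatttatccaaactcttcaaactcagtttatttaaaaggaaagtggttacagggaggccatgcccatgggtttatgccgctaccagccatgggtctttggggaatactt
C3 had a C/EBP match starting 45 bases before its start, at -45. C1ra had a C/EBP match at 17 and a STAT match at 33 after its start, and C1s1 had a C/EBP match at -242, which its other RefSeq window, set at another start, did not include. Neither Hc nor Cd55 matched any of the 4 motifs searched. The windows of these genes lie inside the gene spans given below, so a start farther upstream was not searched. Of all 32851 windows of this length, 10.8% held a C/EBP match, 8.3% a STAT match, 8.56% a match to the interferon element ISRE (GAAANNGAA) and 4.51% a match to the NF-kB consensus. The ISRE and NF-kB motifs matched none of the 5 members. Such a match describes letters in a window and is not a binding site.

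In the RefSeq annotation of GRCm38.p6, C4b (chr17:34728139-34743902), Cfb (chr17:34856374-34862514) and C2 (chr17:34862602-34882100) lie close together on chromosome 17 and C3 (chr17:57203967-57228136) farther along it. Hc (chr2:34983329-35068506) and Serping1 (chr2:84765360-84775444) are on chromosome 2 and Cd55 (chr1:130429798-130465009) is on chromosome 1.

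In vehicle cultures C3 was the most abundant complement member of both fractions and the protease genes were mainly found with the fibroblasts. Levels between genes are compared as CPM per kilobase of exon. In the vehicle fibroblast libraries C3 stood at 198 ± 16.1 CPM per kilobase (SD, n = 3), followed by C1s1 at 122 ± 13.5, C1ra at 42.5 ± 2.5, C4b at 14.0 ± 0.692, Serping1 at 7.20 ± 0.0266, Hc at 5.20 ± 1.67 and Cd55 at 2.17 ± 0.547. In the vehicle epithelial libraries C3 stood at 55.6 ± 4.85 (n = 4), followed by C1s1 at 8.04 ± 2.38, Cd55 at 7.82 ± 1.30, Hc at 4.69 ± 0.515, C1ra at 2.78 ± 0.652, C4b at 0.801 ± 0.217 and Serping1 at 0.384 ± 0.259. C2 and Cfb were at 0.112 CPM per kilobase or lower in both. Genes encoding the whole classical protease pair, its substrate C4 and its inhibitor were measured in the fibroblast fraction at many times the level of C2.

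**Figure D2:**
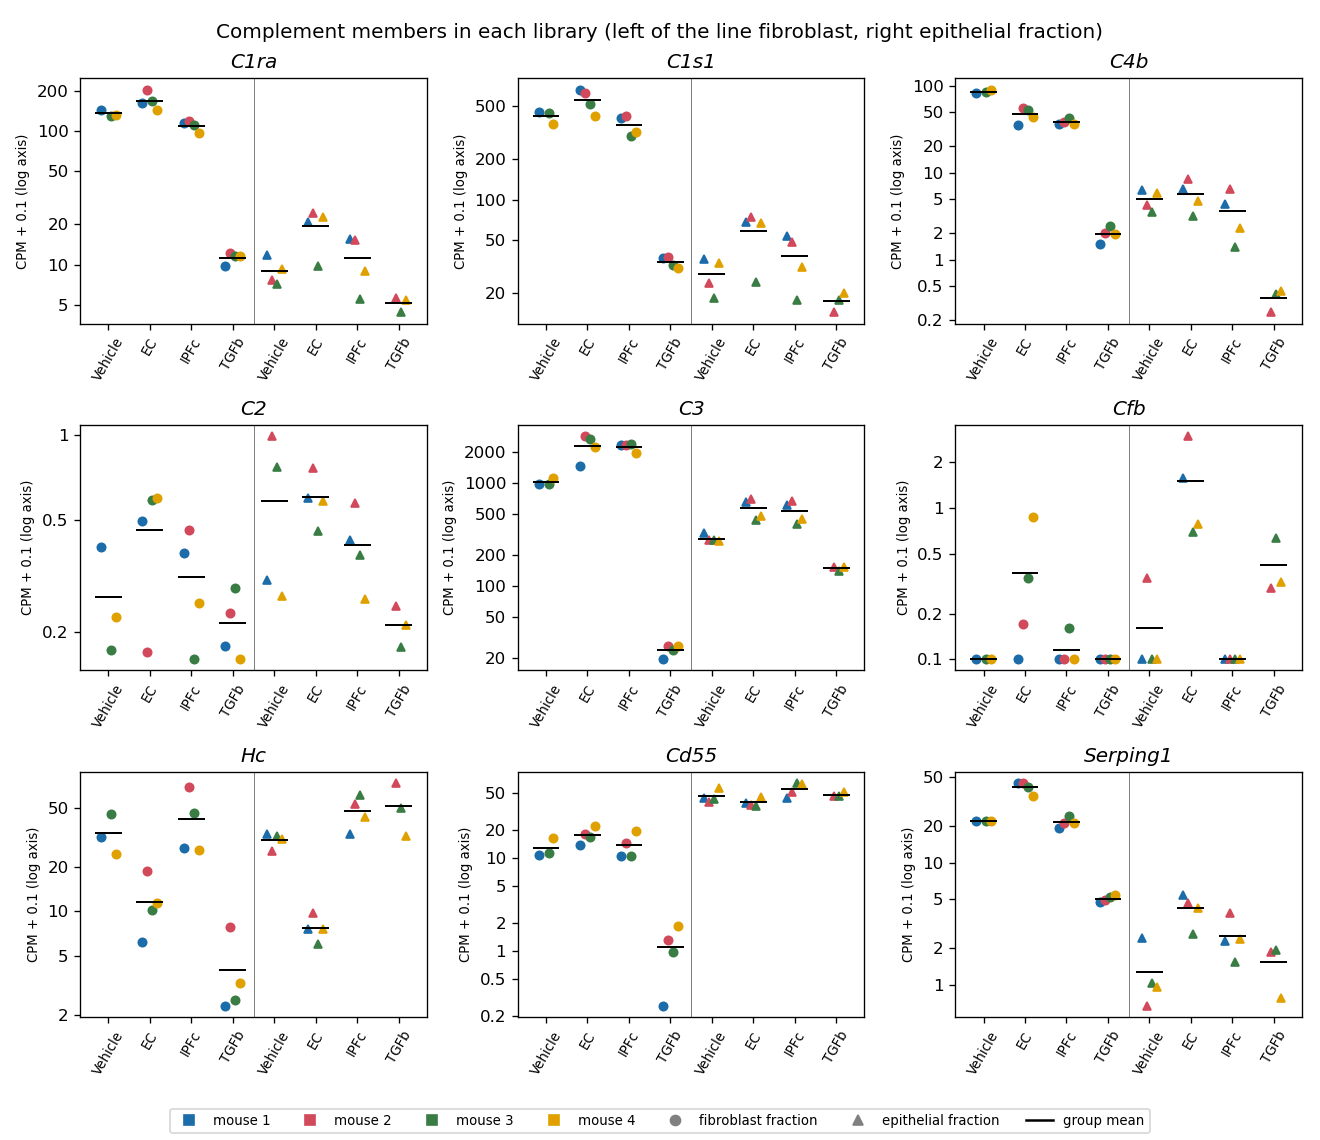
CPM of the 9 complement members in each library, on a log axis after adding 0.1. Circles are fibroblast and triangles epithelial libraries, coloured by mouse, and lines are group means. The TGFb mean is lowest among the fibroblast groups for C1ra, C1s1, C4b, C3, Hc, Cd55 and Serping1, and for Hc the TGFb and EC fibroblast libraries overlap.

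Between the fractions, 6 of the 9 members differed in vehicle cultures (adjusted p under 0.05, edgeR quasi-likelihood test with Benjamini-Hochberg adjustment over all genes), where 58.8% of all genes tested differed. Lower in the epithelial fraction, in 3 of 3 cultures, were C3 (log2 difference -1.88 ± 0.15 SE, adjusted p = 3.17e-11), C1ra (-4.01 ± 0.18, adjusted p = 2.44e-15), C1s1 (-4.00 ± 0.21, adjusted p = 3.52e-14), C4b (-4.31 ± 0.22, adjusted p = 1.36e-14) and Serping1 (-4.30 ± 0.27, adjusted p = 4.74e-13). Cd55, which speeds the decay of the enzymes that cleave C3 and C5, was the exception and stood higher in the epithelial fraction (1.91 ± 0.17, adjusted p = 1.99e-10). Hc did not pass the test (-0.17 ± 0.22, adjusted p = 0.517), and its fibroblast libraries, from 24.2 to 45.6 CPM, overlapped the epithelial ones, from 25.6 to 33.1 CPM.

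The level of a gene in the epithelial libraries could be set against the share of fibroblast marker RNA in them. C3 in epithelial libraries stood at 22.6 to 31.6% of the partner fibroblast library with vehicle, and was above the fibroblast share in all 14 cultures with both fractions. Cd55 and Hc were likewise above it in every culture. C1ra, C1s1, C4b and Serping1 lay near the share: with vehicle C1s1 stood at 3.69 to 8.47% and was above the share in 1 of 3 cultures, C1ra at 4.92 to 7.73% in 2 of 3, C4b at 3.69 to 7.24% in 1 of 3 and Serping1 at 3.65 to 10.1% in 1 of 3. With TGFb, C1s1 stood at 41.0 to 70.4% and C1ra at 40.2 to 49.8%, both above the share in 3 of 3 cultures, while C4b, at 8.0 to 19.5%, was above it in 0 of 3 and Serping1, at 13.9 to 38.7%, in 2 of 3. In the other direction, Cd55 in vehicle fibroblast libraries stood at 25.2 to 30.7% of the epithelial level, where the epithelial marker share was 17.3 to 31.0%, and was above that share in 2 of 3 cultures.

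**Figure D3:**
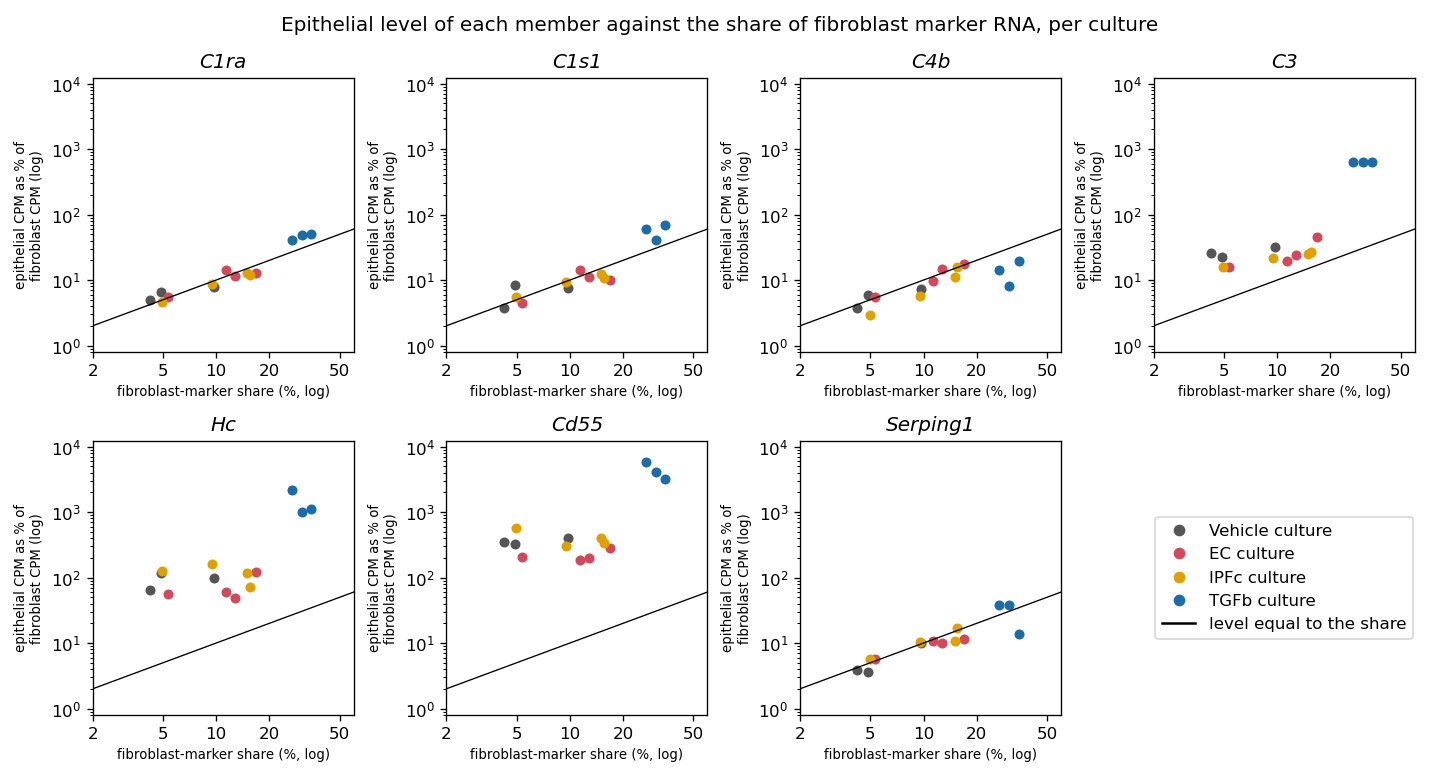
Epithelial CPM of 7 members in percent of the partner fibroblast library (vertical) against the share of fibroblast marker RNA in the epithelial library (horizontal), both on log axes, with 1 point per culture coloured by treatment. The line marks a level equal to the share. C3, Hc and Cd55 lie above the line in every culture, while C1ra, C1s1, C4b and Serping1 lie close to it with vehicle, EC and IPFc.

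The TGFb comparison asked how complement genes respond to TGF-β alone. In the fibroblast fraction 7 of the 9 members fell and none rose, covering the classical proteases, C4b, C3, Hc and both regulators. Of all genes tested there, 19.2% were called and 12.8% were called lower. The median log2 fold change of the members was -3.58, beside -0.02 over all genes.

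C3, the hub of the cascade, stood at 982, 979 and 1125 CPM in the vehicle fibroblast libraries of mice 1, 3 and 4 and at 19.3, 26.0, 23.9 and 26.2 CPM in the TGFb libraries of mice 1 to 4. Every TGFb library was far below every vehicle library. The log2 fold change was -5.43 ± 0.18 (SE), a 43.2-fold lower level (adjusted p = 1.23e-11, lower in 3 of 3 mice).

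C4b, whose product is cleaved to build the C3-cleaving enzyme, stood at 82.1, 83.1 and 89.8 CPM with vehicle and at 1.41, 1.94, 2.30 and 1.88 CPM with TGFb. It was 44.3-fold lower (log2 -5.47 ± 0.16, adjusted p = 4.09e-12), again without overlap. Its near copy C4a, which shares most of its sequence, stood at 6.95 ± 0.238 CPM (SD, n = 3) with vehicle and 5.58 ± 0.926 CPM (n = 4) with TGFb. Reads of the C4 copies may be split between them in the counting, which is not described.

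The protease genes moved as a pair. C1s1 stood at 456, 448 and 371 CPM with vehicle and at 36.5, 36.9, 32.1 and 30.9 CPM with TGFb, 12.4-fold lower (log2 -3.64 ± 0.13, adjusted p = 1.34e-11). C1ra stood at 144, 129 and 132 CPM with vehicle and at 9.70, 12.0, 11.5 and 11.5 CPM with TGFb, 12.0-fold lower (log2 -3.58 ± 0.13, adjusted p = 1.34e-11). For both, the groups lay far apart. The genes lie near each other on chromosome 6 (GRCm38.p6), C1ra at chr6:124512621-124523440 and C1s1 at chr6:124530344-124542392. Their copies C1rb and C1s2 are annotated as separate genes, and C1s2 fell from 10.8 to 0.746 CPM.

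Serping1, the inhibitor of C1r and C1s, fell least of the 7. It stood at 21.9, 21.9 and 21.8 CPM with vehicle and at 4.62, 4.88, 5.10 and 5.28 CPM with TGFb, 4.22-fold lower (log2 -2.08 ± 0.15, adjusted p = 1.64e-08). Both groups were tight and did not overlap.

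Hc stood at 31.5, 45.6 and 24.2 CPM with vehicle and at 2.19, 7.76, 2.43 and 3.15 CPM with TGFb, 11.1-fold lower (log2 -3.48 ± 0.24, adjusted p = 1.17e-08). Mouse 2 was the highest of the TGFb libraries and still below all vehicle libraries. Hc in TGFb fibroblast libraries stood at 4.57 to 9.98% of the epithelial level, where the epithelial marker share was 0.955 to 3.61% in the same cultures.

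Cd55 stood at 10.6, 11.3 and 16.5 CPM with vehicle and at 0.156, 1.2, 0.871 and 1.76 CPM with TGFb in the fibroblast fraction (log2 -3.66 ± 0.27, adjusted p = 2.77e-08). The groups were far apart. The epithelial marker share in the same libraries was 17.3 to 31.0% with vehicle and 0.955 to 3.61% with TGFb, its summed epithelial markers were at 7489 to 12296 and 299 to 820 CPM. After subtraction of the share the call on Cd55 was lost (log2 -4.96, adjusted p = 0.208), while the other 6 members remained called lower.

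In the epithelial fraction TGFb gave a different picture, with 5 of 9 members called where 41.1% of all genes were. C3, C1ra, C4b and C2 fell and Hc rose, while C1s1 (log2 -0.43 ± 0.24, adjusted p = 0.154), Cd55 (0.08 ± 0.12, adjusted p = 0.622), Serping1 (0.56 ± 0.45, adjusted p = 0.350) and Cfb did not pass the test. C3 stood at 325, 278, 277 and 271 CPM in the vehicle libraries of mice 1 to 4 and at 154, 139 and 153 CPM in the TGFb libraries of mice 2 to 4. It was 1.79-fold lower (log2 -0.84 ± 0.12, adjusted p = 7.15e-06), and the groups did not overlap. These TGFb epithelial libraries held 625 to 633% of the C3 of their partner fibroblast libraries, an order opposite to that of vehicle cultures.

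Hc stood at 33.1, 25.6, 32.3 and 30.8 CPM with vehicle and at 73.4, 49.5 and 32.0 CPM with TGFb in the epithelial fraction. The groups overlapped at mouse 4, and the log2 fold change was 0.71 ± 0.20 (adjusted p = 0.00675, higher in 3 of 3 mice). Without mouse 2 it was 0.27 (adjusted p = 0.348).

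C4b fell from 4.85 ± 1.32 CPM (SD, n = 4) to 0.263 ± 0.102 CPM (n = 3), with 3 to 4 reads per TGFb library (log2 -4.25 ± 0.50, adjusted p = 6.76e-07). C1ra fell from 8.87 ± 2.08 to 5.03 ± 0.655 CPM (log2 -0.66 ± 0.23, adjusted p = 0.0263), a call lost without mouse 2 (adjusted p = 0.0510) and without mouse 4 (0.0550). C2 had 29 reads over 4 vehicle and 5 reads over 3 TGFb libraries, a ratio of 0.237 (95% exact interval 0.0716 to 0.619, counting error only), and its adjusted p of 0.0410 was 0.254 without mouse 2 and 0.247 without mouse 3. Fibroblast marker RNA in the epithelial libraries rose from 5.99% to 30.7% in this comparison. After its subtraction the calls on C3 (log2 -0.13, adjusted p = 0.601) and C1ra (1.68, adjusted p = 0.308) were lost. Those on C4b (-4.53, adjusted p = 0.254) and C2 (-2.35, adjusted p = 0.0860) were lost as well, while Hc stayed called. C4b lay below the share in every TGFb culture, so subtraction left it no reads there and its value is not a measured fold. With the same subtraction Cd55 was called higher (log2 0.52, adjusted p = 0.00440).

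The difference between the fractions in the TGFb response was tested as an interaction. It was called for 6 of the 9 members, with 27.5% of all genes called. All 6 fell less, or rose, in the epithelial fraction. The log2 difference of the responses was 4.62 ± 0.22 for C3 (adjusted p = 2.25e-13), 4.20 ± 0.35 for Hc (adjusted p = 1.53e-09), 3.74 ± 0.27 for Cd55 (adjusted p = 2.41e-10), 3.23 ± 0.30 for C1s1 (adjusted p = 6.63e-09), 2.94 ± 0.27 for C1ra (adjusted p = 5.24e-09) and 2.63 ± 0.43 for Serping1 (adjusted p = 3.10e-05). The median over all genes was 0.21 on this scale. C4b (1.19 ± 0.70, adjusted p = 0.224) did not pass. Each estimate rests on 2 mice with all 4 libraries plus the unpaired ones, in 1 fit. Fibroblast marker RNA in the epithelial libraries rose from 5.99% to 30.7% with TGFb, and its part in these differences was not tested. After subtraction of the shares all 6 stayed called, with C1s1 at 6.56 (adjusted p = 0.0260), Serping1 at 6.06 and C1ra at 5.36. These 3 lay below the share in some vehicle cultures, so subtraction left them no reads there and their values are not measured folds.

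**Figure D4:**
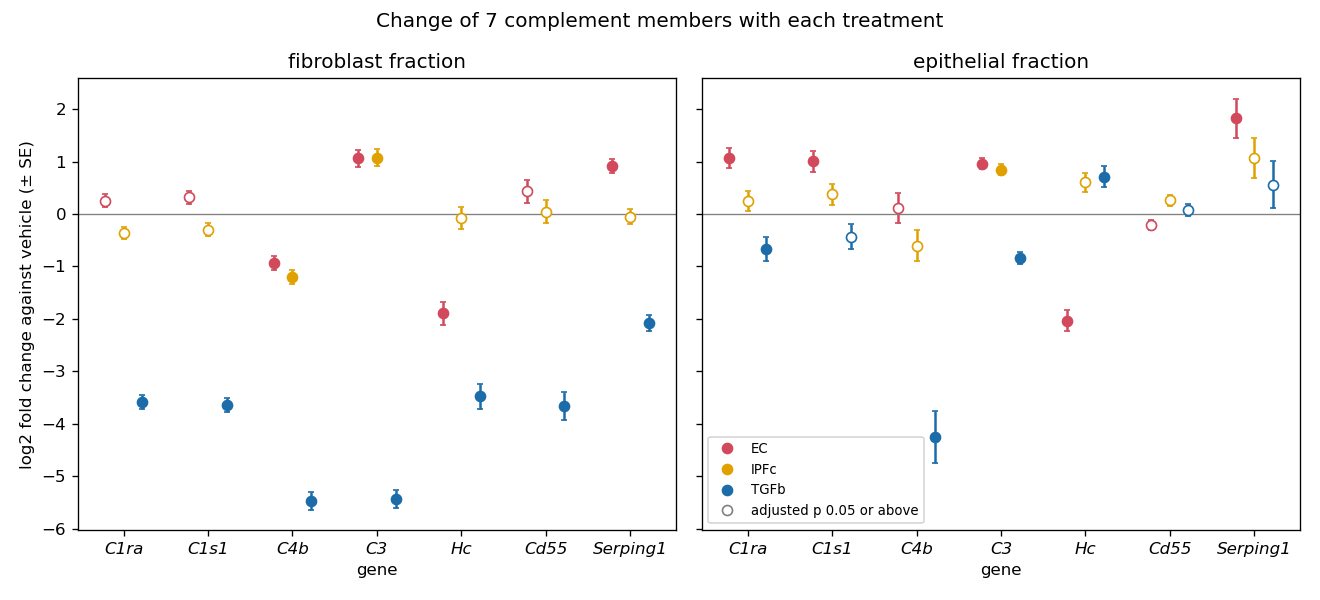
Log2 fold change against vehicle (± SE) of 7 members in the fibroblast (left) and epithelial (right) fraction. Filled points had an adjusted p under 0.05. TGFb points lie at -2.08 or below in the fibroblast fraction for every member shown, and in the epithelial fraction C3 rose with EC and IPFc and fell with TGFb.

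EC asked what an inflammatory mix does to these genes. In the epithelial fraction 6 of 9 members were called, where 4.41% of all genes were. C3, Cfb, C1s1, C1ra and Serping1 rose and Hc fell, with a median log2 fold change of 0.96 over the members beside 0.00 over all genes.

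C3 stood at 656, 704, 441 and 475 CPM in the EC epithelial libraries of mice 1 to 4, all above the vehicle range of 271 to 325 CPM. The log2 fold change was 0.96 ± 0.11, or 1.94-fold (adjusted p = 4.84e-06, higher in 4 of 4 mice). The fibroblast fraction of the same cultures also rose, and with subtraction of the fibroblast share the epithelial value was 0.52 (adjusted p = 0.121).

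Cfb, the protease of the alternative route, had 21, 39, 10 and 7 reads in the EC epithelial libraries of mice 1 to 4, against 0, 3, 0 and 0 with vehicle. All EC libraries were above all vehicle libraries. Over the group this was 77 against 3 reads, a ratio of 27.3 (95% exact interval 9.01 to 135, counting error only), with an adjusted p of 0.00650. With the fibroblast share subtracted the fitted log2 fold change stayed as large, 4.62 beside 4.49, at an adjusted p of 0.0692. In the EC fibroblast libraries Cfb had 0, 1, 4 and 14 reads for mice 1 to 4 and none in the vehicle libraries. Since 19 of its reads in this fraction were in EC libraries and 1 in an IPFc library, it passed the filter only through the group where it was high, and no test is drawn on here. The highest of the EC fibroblast libraries, mouse 4, was also the fibroblast library with the highest epithelial share, 58.4%.

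Hc moved opposite to C3. It stood at 7.44, 9.59, 5.92 and 7.47 CPM with EC in the epithelial fraction, below all vehicle libraries, 4.10-fold lower (log2 -2.04 ± 0.20, adjusted p = 1.04e-06). The fall was still called after subtraction of the fibroblast share.

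C1s1 stood at 68.3, 73.8, 24.1 and 66.4 CPM with EC and at 36.0, 23.9, 18.3 and 33.5 CPM with vehicle (log2 1.01 ± 0.20, adjusted p = 0.00400). C1ra stood at 20.8, 24.0, 9.74 and 22.6 CPM with EC and at 11.7, 7.61, 7.04 and 9.14 CPM with vehicle (log2 1.06 ± 0.19, adjusted p = 0.00129). Serping1 stood at 5.32, 4.57, 2.51 and 4.17 CPM with EC and at 2.32, 0.566, 0.925 and 0.846 CPM with vehicle (log2 1.82 ± 0.37, adjusted p = 0.00453). All 3 were higher in 4 of 4 mice, and for both protease genes mouse 3 was the lowest EC library and fell within the vehicle range. Mouse 3 also had the lowest fibroblast share among the EC epithelial libraries, 5.34% against 11.4 to 16.8% in the others. In these cultures C1s1 stood at 4.42 to 14.2% of the fibroblast level, C1ra at 5.57 to 14.3% and Serping1 at 5.76 to 11.7%, close to the share. With the share subtracted, the calls were lost and the log2 fold changes were -0.50 for C1s1, -0.11 for C1ra and 0.84 for Serping1 (adjusted p = 0.943). Without the mouse in the model the adjusted p was 0.118 for C1s1 and 0.0594 for C1ra, and Serping1 stayed called.

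C4b (0.12 ± 0.29, adjusted p = 0.913), Cd55 (-0.21 ± 0.10, adjusted p = 0.374) and C2, with 27 reads against 29, did not pass the test.

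In the fibroblast fraction EC gave 4 calls of 9, beside 7.11% of all genes. C3 and Serping1 rose, Hc and C4b fell. C3 stood at 1446, 2837, 2647 and 2228 CPM with EC, above the vehicle libraries at 979 to 1125 CPM (log2 1.06 ± 0.16, adjusted p = 0.00109, higher in 3 of 3 mice). The lowest was mouse 1, the smallest library of the series. Without mouse 3 the log2 fold change was 0.93 (adjusted p = 0.0594).

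Serping1 stood at 44.8, 44.8, 41.7 and 35.1 CPM with EC against 21.8 to 21.9 CPM with vehicle (log2 0.91 ± 0.14, adjusted p = 0.00103). C4b stood at 35.1, 55.6, 52.7 and 42.8 CPM with EC against 82.1 to 89.8 CPM with vehicle (log2 -0.93 ± 0.13, adjusted p = 0.000649). Hc stood at 6.12, 18.7, 10.1 and 11.2 CPM with EC against 24.2 to 45.6 CPM (log2 -1.89 ± 0.22, adjusted p = 0.000129). None of the 3 pairs of groups overlapped. The inhibitor of the classical proteases rose while their substrate fell. C1s1 (0.32 ± 0.12, adjusted p = 0.13), C1ra (0.25 ± 0.12, adjusted p = 0.226) and Cd55 (0.43 ± 0.22, adjusted p = 0.263) did not pass. The epithelial share rose from 22.4% to 44.5% in these libraries, and after its subtraction 2 members were called, C4b (log2 -0.56, adjusted p = 0.352) and Hc (-1.67, adjusted p = 0.158) no longer. Over all genes the calls fell from 1284 to 33 with this subtraction.

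The response to EC differed between fractions for 2 of 9 members, C4b (log2 difference 1.05 ± 0.29, adjusted p = 0.0364) and C1ra (0.80 ± 0.23, adjusted p = 0.0407), beside 4.59% of all genes. Both were higher in the epithelial than the fibroblast response in 3 of 3 mice. These calls were lost with any of mice 2, 3 or 4 left out, and without mouse 1 the adjusted p was 0.0988 for C4b and 0.0595 for C1ra, with Cd55 as the 1 member called. With the shares subtracted neither was called, C4b at 1.48 (adjusted p = 0.656) and C1ra at -0.59 (adjusted p = 0.891). Fibroblast marker RNA in the epithelial libraries rose from 5.99% to 11.6% with EC, and its part in these 2 differences was not tested. For C3 the difference of the responses was -0.11 ± 0.20 on the log2 scale (95% interval -0.51 to 0.28, adjusted p = 0.853).

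IPFc holds TGF-β among its factors, yet C3 rose with it in both fractions. In the epithelial fraction C3 was the single member called, where 4.1% of all genes were. It stood at 617, 669, 396 and 449 CPM with IPFc, above every vehicle library (log2 0.84 ± 0.10, adjusted p = 3.23e-05, higher in 4 of 4 mice). After subtraction of the fibroblast share the value was 0.34 (adjusted p = 0.603). Hc stood at 33.4, 53.2, 61.1 and 43.6 CPM, just above all vehicle libraries, and did not pass the test (log2 0.61 ± 0.18, adjusted p = 0.0646). Without mouse 1 its adjusted p was 0.0392 and without mouse 4 it was 0.0481. Serping1 (1.07 ± 0.38, adjusted p = 0.161), C4b (-0.61 ± 0.29, adjusted p = 0.385) and Cd55 (0.26 ± 0.10, adjusted p = 0.216) did not pass, and Cfb had 0 reads in all 4 IPFc libraries.

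In the fibroblast fraction C3 rose and C4b fell with IPFc, 2 of 9 members, where 0.449% of all genes were called. C3 stood at 2317, 2348, 2368 and 1954 CPM, well above the vehicle libraries (log2 1.07 ± 0.16, adjusted p = 0.00463, higher in 3 of 3 mice). C4b stood at 36.0, 38.0, 41.9 and 36.2 CPM, all below the vehicle libraries (log2 -1.21 ± 0.13, adjusted p = 0.000217). The C3 call was lost without mouse 3 (log2 1.00, adjusted p = 0.168) and without mouse 4 (1.18, adjusted p = 0.0987). After subtraction of the epithelial share neither was called, C3 at 1.06 (adjusted p = 0.30) and C4b at -1.25 (adjusted p = 0.0585). Over all genes the calls fell from 81 to 1 with this subtraction. C1s1 (-0.30 ± 0.12, adjusted p = 0.626), C1ra (-0.37 ± 0.12, adjusted p = 0.378), Serping1 (-0.05 ± 0.14), Hc (-0.08 ± 0.21) and Cd55 (0.04 ± 0.22) did not pass. In the test of a difference between the fractions in the response to IPFc, edgeR called 0 of the 9 members, beside 0.229% of all genes, with 5 members at an unadjusted p under 0.05 (C1ra, C1s1, C4b, Hc and Serping1, all with a more positive response in the epithelial fraction), and DESeq2 also called 0.

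The cocktails can also be compared with each other. EC against IPFc in the epithelial fraction gave 4 calls of 9, beside 4.17% of all genes. Hc was lower with EC (log2 -2.64 ± 0.20, adjusted p = 1.24e-08), Cfb was higher, with 77 reads against 0 (adjusted p = 0.00140), C1ra was higher (0.81 ± 0.19, adjusted p = 0.0120) and Cd55 was lower (-0.47 ± 0.10, adjusted p = 0.00844). Cd55 stood at 39.7, 37.2, 36.2 and 45.8 CPM with EC and at 44.8, 51.6, 64.2 and 62.6 CPM with IPFc, lower with EC in each mouse while the groups overlapped. The Cd55 call was lost without mouse 2 (adjusted p = 0.0649) or mouse 3 (0.127), and the C1ra call without mouse 4 (0.121). With no replicate block, 2 members were called.

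In the fibroblast fraction EC against IPFc also gave 4 calls of 9, beside 10.4% of all genes. Serping1 (log2 0.96 ± 0.12, adjusted p = 0.000148), C1s1 (0.62 ± 0.11, adjusted p = 0.00191) and C1ra (0.62 ± 0.11, adjusted p = 0.00156) were higher with EC and Hc was lower (-1.82 ± 0.20, adjusted p = 4.51e-05). C1s1 stood at 666, 631, 523 and 424 CPM with EC and at 408, 426, 302 and 319 CPM with IPFc, higher with EC in every mouse. C1ra stood at 161, 204, 167 and 144 CPM with EC and at 114, 118, 110 and 95.8 CPM with IPFc, without overlap. C3 did not pass, with a difference of -0.01 ± 0.14 on the log2 scale (95% interval -0.29 to 0.27). The epithelial share in these libraries averaged 44.5% with EC and 19.4% with IPFc. After its subtraction the Hc call was lost (log2 -1.43, adjusted p = 0.263), and 3 members stayed called. Over all genes the calls fell from 1885 to 19 with this subtraction.

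IPFc against TGFb was compared after the values above had been seen. In the fibroblast fraction 7 of 9 members were higher with IPFc, beside 17.4% of all genes called. C3 was 90.7-fold higher (log2 6.5 ± 0.18, adjusted p = 8.97e-13) and Serping1, at 4.08-fold, differed least of the 7. The epithelial share in these libraries averaged 19.4% with IPFc and 2.19% with TGFb. After its subtraction the Cd55 call was lost (log2 5.76, adjusted p = 0.167), and calls over all genes fell from 3141 to 645. In the epithelial fraction 5 of 9 differed, beside 37.2% of all genes. C3 was 3.21-fold higher with IPFc (log2 1.68 ± 0.12, adjusted p = 1.12e-09), C4b, C1s1 and C1ra were also higher, and Cfb, with 13 reads over the TGFb libraries and 0 over the IPFc libraries, was lower. The C1s1 (adjusted p = 0.177) and C1ra (0.0582) calls were lost without mouse 2 and the Cfb call without mouse 3 (0.0769). With the fibroblast share subtracted, C1ra was called in the opposite direction (log2 -8.19, adjusted p = 0.00787). C1ra lay below the share in every IPFc culture, so subtraction left it no reads there and -8.19 is not a measured fold. C1s1 turned to -3.92 (adjusted p = 0.129) and C4b was not called (2.48, adjusted p = 0.545). Hc did not pass there (-0.10 ± 0.19, adjusted p = 0.713). The dose of TGF-β in IPFc is not given in the labels, so the agents differ in dose as well as in their other factors.

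Ordered by mean CPM over the 8 groups, C3 ran from EC and IPFc fibroblasts, whose ranges overlapped, through vehicle fibroblasts, EC and IPFc epithelium, again overlapping, vehicle epithelium and TGFb epithelium to TGFb fibroblasts, with no overlap at the other steps. C1ra and C1s1 ran highest in EC fibroblasts and lowest in TGFb epithelium. Cd55 was higher in all 4 epithelial groups, which overlapped each other from one to the next, than in any fibroblast group. The lowest Hc groups were EC in both fractions and TGFb fibroblasts, which overlapped, while the 5 others lay above them and also overlapped from one to the next.

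Of 50 other complement genes, 27 were tested in the epithelial and 34 in the fibroblast fraction. C1q, to which C1r and C1s bind, was close to 0: C1qa, C1qb and C1qc each averaged at most 0.288 CPM in any group. In fibroblasts, EC gave 3 higher and 3 lower calls of the 34 (7.11% of all genes were called), IPFc 0 calls by edgeR and by DESeq2 (5 genes at an unadjusted p under 0.05, with 0.449% of all genes called), and TGFb 1 higher and 11 lower calls (19.2% of all genes), while the median log2 fold change of the list with TGFb was -0.35. The TGFb calls with the smallest adjusted p and a log2 fold change over 1 in size were C1s2 (-3.95, adjusted p = 6.03e-08), Susd4 (-4.09, 3.29e-07), C1rl (-1.72, 8.39e-07), the pore component C6 (-6.33, 4.92e-06) and the inhibitor clusterin Clu (-2.40, 9.36e-06). Clu fell from 1409 to 243 CPM, where the epithelial libraries held 8702 CPM with vehicle and 16222 CPM with TGFb. Susd4 with TGFb stood at 8.81 CPM in epithelial and 0.180 CPM in fibroblast libraries. The epithelial marker share in the fibroblast libraries fell from 22.4% to 2.19% in this comparison, and its part in these calls was not tested.

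In the epithelial fraction the other complement genes gave 3 higher calls of 27 with EC (4.41% of all genes were called), 4 higher with IPFc (4.1%), and 10 higher and 3 lower with TGFb (41.1%), the last a share near that of all genes. With TGFb the leading calls were Colec12 (log2 1.93, adjusted p = 8.51e-09), the lectin-route protease Masp1 (2.51, 9.27e-08), the complement receptor chain Itgb2 (1.79, 7.46e-05), the pore inhibitor Cd59a (2.40, 0.000198) and the lectin Mbl1 (-4.11, 0.000420). Colec12 rose from 22.8 to 74.8 CPM and Masp1 from 10.5 to 49.8 CPM, and the TGFb fibroblast libraries held 301 and 154 CPM of them. The fibroblast share rose from 5.99% to 30.7% in the same libraries, and its part in these calls was not tested. The copies C1rb and Cd55b, which resemble C1ra and Cd55, were below 4 CPM in every group. In the fibroblast fraction C1rb averaged 0.824 CPM with vehicle, and was called higher with EC (3.49 CPM) and lower with TGFb (0.116 CPM). It was also called higher with EC than with IPFc (1.35 CPM) there.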

How the data were processed

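Adapters were removed by the authors with Trimmomatic 0.30, and alignment was to GRCm39 by the labels, or to GRCm38 patch 6 by the paper's methods. They deposited raw counts, the whole number of reads on each Ensembl gene with its symbol, without normalization. The aligner and the counting settings are not given in the sources used here, so reads of near copies or overlapping genes carry that uncertainty.

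From the deposited counts, differential expression was tested with edgeR 4.0.16 in R 4.3.3 (TMM, quasi-likelihood test, two-sided, mouse as a block), in 1 fit per fraction (15 libraries, 8 residual degrees of freedom) and in 1 fit of all 30 libraries for differences between fractions. Tested were genes whose raw counts averaged 1 or more, 18024 in the epithelial, 18048 in the fibroblast and 18364 in the joint fit, and p-values were adjusted by Benjamini-Hochberg over all of them with a threshold of 0.05. SE is the log2 fold change over the square root of F. CPM are TMM-scaled over all 30 libraries, and lengths are the union of exons in GENCODE (GRCm39). Promoters and coordinates are from RefSeq (GRCm38.p6). The share of the other fraction was the median CPM ratio over its markers with at least 50 CPM in the partner library, or in the mean of the other fraction's libraries of that treatment where the partner was missing. For subtraction, the partner's CPM multiplied by the share were removed from the counts. Exact intervals on ratios of reads cover counting error only, since no molecular identifiers are described.

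The labels give the mouse of each culture. Deviations from the group means correlated by 0.147 (-0.016 to 0.346) within a mouse and -0.048 between mice in the epithelial, and by 0.177 (-0.096 to 0.432) and -0.058 in the fibroblast fraction. Libraries of one group differed by a chi-square of at least 5.47 per degree of freedom, so none was a repeat. The fits were tested on simulated data. Alternatives were DESeq2 1.42.0, its size factors, no filter, filterByExpr, no block, pairwise fits, subtraction and each mouse left out. The members, gene lists and rules were chosen with earlier results of these data known. Named were all 9 members and, of the other complement genes, the 6 with the smallest adjusted p per fraction among calls against vehicle with a log2 fold change over 1 in size, plus the C1q chains and the gene copies. A gene that this rule names is not reported here.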

Additional observations from a re-analysis of the deposited data

Results flagged for a closer look

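In the 52 groups of 4 libraries examined for a library far from the rest, 6 were found, where chance gives about 1 in 20 groups. C3 was low in the IPFc fibroblast library of mouse 4 (1954 CPM) and high in the vehicle epithelial library of mouse 1 (325 CPM). C1s1 (24.1 CPM) and C1ra (9.74 CPM) were low in the EC epithelial library of mouse 3, which had the lowest fibroblast marker share of its group. Cfb stood apart in the IPFc fibroblast library of mouse 3 (0.0602 CPM, 1 read) and in the vehicle epithelial library of mouse 2 (0.243 CPM, 3 reads), where the other libraries had 0 reads.

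The responses of the fractions differed, by the interaction test, for 2 members with EC, C4b by 1.05 and C1ra by 0.80 on the log2 scale (epithelial minus fibroblast). They differed with TGFb for C3 by 4.62, Hc by 4.20, Cd55 by 3.74, C1s1 by 3.23, C1ra by 2.94 and Serping1 by 2.63. The share of the other fraction also moved with both treatments, and its part in these differences was not tested. After its subtraction neither EC difference was called, and the TGFb ones were.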

How the results depend on the processing

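Over 79 member results and their 865 alternative values, 788 kept their direction and their side of the threshold, and 16 turned direction. The others kept their direction, and 50 of them lost and 11 gained the call. A call lost by a value that turned is counted as a turn only, as for C1s1 and C1ra in epithelial EC after subtraction. Of the 50 losses without a turn, 17 came with subtraction of the other fraction's share, which also gave 10 of the 16 turns. In the fibroblast TGFb comparison, 7 members were called and 1 call, on Cd55, was lost with subtraction. Reads limit C2 and Cfb, at 0 to 39 per library. The causes of the changes below were not tested.

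With subtraction the number of members called was 1 (of 6) for epithelial EC, 0 (of 1) for epithelial IPFc, 2 for epithelial TGFb (of 5 before, Hc stayed called, and Cd55 was called in addition), 2 (of 4) for fibroblast EC, 0 (of 2) for fibroblast IPFc, 3 for epithelial IPFc against TGFb (of 5 before, C3 and Cfb stayed called, and C1ra was called in the opposite direction) and 0 (of 2) for the EC response difference. The opposite call on C1ra rests on IPFc libraries that subtraction left with no reads of it. Calls over all genes also fell with subtraction. They went from 794 to 310 for epithelial EC, 739 to 160 for epithelial IPFc and 7400 to 4541 for epithelial TGFb. For fibroblast EC they went from 1284 to 33, and for fibroblast IPFc from 81 to 1. For epithelial IPFc against TGFb they went from 6713 to 4546, and for the EC response difference from 843 to 189. Epithelial IPFc gave 3 without a filter, 2 with DESeq2 and 2 with pairwise fits, and the IPFc response difference gave 1 (of 0) without a filter. With each mouse left out the counts ran from 1 to 2 for epithelial IPFc, 3 to 5 for epithelial TGFb, 1 to 2 for fibroblast IPFc, 3 to 5 for epithelial IPFc against TGFb and 0 to 1 for the EC response difference. With no replicate block, epithelial EC against IPFc gave 2 (of 4) and the EC response difference 0 (of 2), and elsewhere the paired and unpaired counts lay within 1.5 times of each other, with 4 (of 6) for epithelial EC and 3 (of 4) for fibroblast EC.

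The log2 values that turned sign with subtraction were -0.50 for C1s1 and -0.11 for C1ra in epithelial EC, -1.28 and -6.51 in epithelial IPFc, 2.65 and 1.68 in epithelial TGFb, -3.92 and -8.19 in epithelial IPFc against TGFb, -0.59 for C1ra in the EC response difference and -0.45 for Cd55 in fibroblast EC. The values -6.51 and -8.19 of C1ra rest on IPFc libraries that subtraction left with no reads of it, and are not measured folds. With no replicate block Hc in fibroblast IPFc was 0.32. The rest turned with a mouse left out and were uncalled, with ranges over the mice left out of -0.14 to 0.27 for C4b in epithelial EC, -0.00087 to 0.44 for C1ra in epithelial IPFc, -0.047 to 0.12 for Cd55 in epithelial TGFb, and -0.20 to 0.019 for Hc and -0.057 to 0.10 for Cd55 in fibroblast IPFc.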
